A study of Mus musculus with 6 samples.

Results

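B lymphocytes of the mouse lung were chosen by their own measured transcripts: they are the cell barcodes that carried transcripts of the B cell receptor complex and none, or almost none, of other cell types. A barcode was a member if it had at least 500 genes, at most 15% mitochondrial UMIs (unique molecular identifiers, each 1 captured transcript molecule) and at least 3 UMIs in sum of Cd79a, Cd79b and Ms4a1. It also had 0 UMIs of the T cell genes Cd3e and Cd3d, at most 1 UMI in sum of the endothelial genes Cdh5, Pecam1 and Cldn5, 0 UMIs of the epithelial gene Epcam, and at most 1 UMI in sum of Trap1a and Trnp1, which mark the leukaemia cells of these libraries. Of 28516 barcodes, 24640 passed the filters on genes and mitochondrial UMIs, and 281 of them were B lymphocytes by this rule. The study made single-cell libraries with the 10x Chromium 3' v3.1 kit from lungs of normal mice (Control 1, 2 and 3) and from lungs infiltrated by acute myeloid leukaemia that carries the Trp53 alleles R172H and a deletion (AML 1, 2 and 3). Lungs were digested with Liberase and DNaseI and sorted for niche cells, that is, cells outside the blood lineage, and sorted GFP-positive leukaemia cells were pooled into the AML libraries at 20% beside 80% niche cells. The labels give no strain, age, sex or number of animals for either group, and the leukaemia is known here only by its Trp53 alleles and GFP. The B lymphocytes are thus cells that remained after a sort against blood cells, and no library holds the B lymphocytes of a whole lung.

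B lymphocytes recognise antigen with a membrane antibody made of heavy and light chains, whose signal is passed on by the Cd79a and Cd79b chains. Each mature cell uses a light chain of the kappa or the lambda type. Naive cells carry IgM and IgD together, and activated cells can switch to IgG, IgA or IgE and become antibody-secreting plasma cells. In the lung, B lymphocytes circulate through the capillary bed, sit in small perivascular aggregates and present antigen to T cells on MHC class II.

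Control 1, 2 and 3 held 4, 42 and 27 B lymphocytes, and AML 1, 2 and 3 held 69, 54 and 85. They made up 0.23%, 1.11% and 0.762% of the kept barcodes in the Controls, against 1.48%, 1.12% and 1.4% in the AML libraries (exact 95% binomial intervals 0.0626 to 0.587%, 0.80 to 1.5% and 0.503 to 1.11%, and 1.15 to 1.87%, 0.845 to 1.46% and 1.12 to 1.72%). The mean share was 0.70% ± 0.443 in Control and 1.33% ± 0.186 in AML libraries (SD, n = 3 each). Over barcodes with at most 1 leukaemia marker UMI it was 0.701% ± 0.444 and 1.62% ± 0.143. This limit left 4063 of 4670, 3702 of 4809 and 4962 of 6086 kept barcodes in AML 1, 2 and 3. Added leukaemia cells with few such UMIs may remain among them. Control 1 was low, and Control 2 and AML 2 were nearly equal. Because the rule sets these counts and the sort removed blood cells, the shares are a description and were not tested. The intervals cover counting error only. Between 1 and 24 barcodes were shared by each of the 15 pairs of libraries, and 0 were shared among the B lymphocytes.

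**Figure D1:**
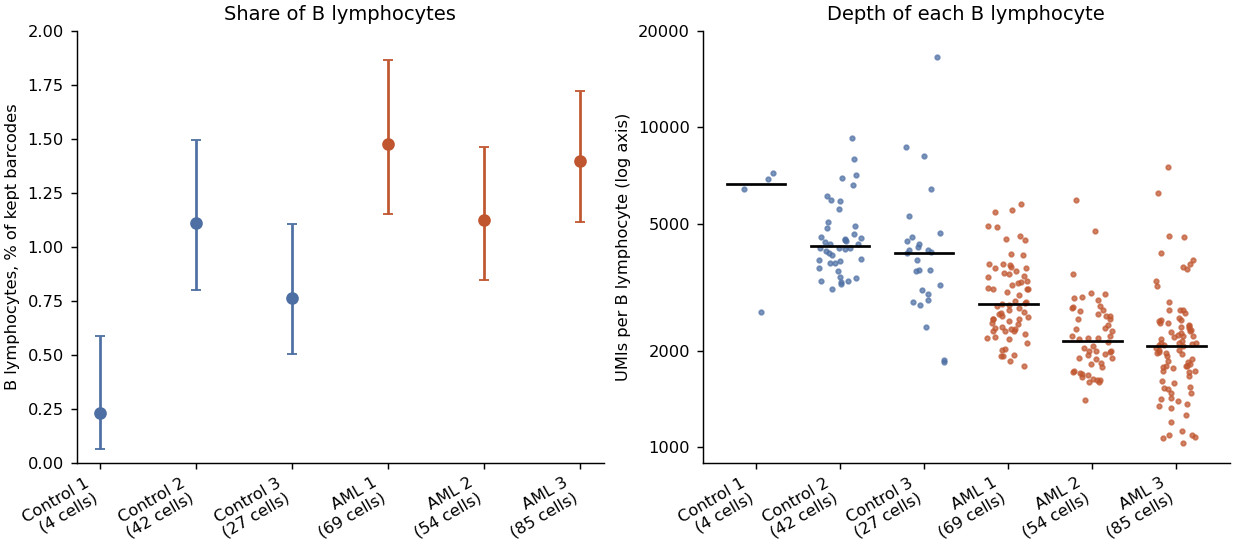
Left, B lymphocytes as a percent of kept barcodes in each library, with exact 95% binomial intervals as bars. Right, UMIs of each B lymphocyte on a log axis, 1 point per cell and the library median as a line; medians lie at 4032 to 6642.5 in the Controls, against 2071 to 2798 in AML libraries, and 1 cell of Control 3 reaches 16605.

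The B lymphocytes of the AML libraries were read less deeply. The median of UMIs per cell was 6642.5, 4248 and 4032 in the Control libraries, but 2798, 2150 and 2071 in AML 1, 2 and 3, and the median genes per cell were 2319, 1494 and 1515 against 1190, 952.5 and 886. Median UMIs of T and NK lymphocytes in the same libraries were 11863, 5706.5 and 5083 against 4315.5, 3566 and 3127, and those of endothelial cells 8893, 5505 and 4805 against 3851, 4278 and 3138. Summed over B lymphocytes, 23124, 194360 and 122120 UMIs were counted in the Controls, against 210046, 124557 and 190108 in AML 1, 2 and 3. Control 1 had fewer than 10 B lymphocytes and entered no test of genes, so each such test set 2 Control against 3 AML libraries. Within a group, the summed B lymphocytes of every tested pair differed beyond counting noise (chi-square per degree of freedom 2.24 to 3.92). The labels do not say that libraries came from separate animals, so p-values cover the spread among these libraries alone, which may be technical.

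Cd79a and Cd79b, the signalling chains of the B cell receptor (chr7:24897381-24902197 and chr11:106311341-106314762, mm10), and Ms4a1, which encodes the surface protein CD20 (chr19:11249675-11266241), chose the cells. Their summed UMIs had medians of 31, 25.5 and 22 per cell in the Controls, against 16, 7 and 7 in AML 1, 2 and 3. Just outside the rule lay 11 barcodes with a sum of 2, of which 7 had light chain UMIs and 7 had IgM or IgD UMIs. Just inside lay 11 cells with a sum of 3, all 11 with light chain and all 11 with IgM or IgD UMIs, and 11 with a sum of 4. All cells at 3 or 4 came from AML 2 (3 and 7 cells) and AML 3 (8 and 4 cells), where the depth was lowest.

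Genes of the B lineage that the rule did not use were found in 20.6% (Blk) to 96.1% (Ebf1) of these cells. Most of them were rare in the other classes. Ebf1, a transcription factor that sets the B cell fate (chr11:44617317-45008091), had a UMI in 96.1% of the 281 B lymphocytes. It was found in 0 of 231 T and NK lymphocytes (exact 95% upper limit 1.58%) and 6.98% of 15898 endothelial cells. Fcmr, the IgM Fc receptor, was found in 72.6%, 0 of 231 and 0.00629% of these classes, and Bank1, an adaptor of receptor signalling, in 64.4%, 0.866% and 0.0189%. Pax5, which maintains B cell identity, was found in 53.4% of B lymphocytes, and Pou2af1, a coactivator of octamer-binding factors, in 46.6%. No T or NK lymphocyte had a UMI of either, and at most 0.0503% of endothelial cells did. Cd37, Ralgps2 and Cd72 were less restricted. They were found in 84.3%, 54.4% and 35.2% of B lymphocytes and in 49.4%, 15.2% and 9.52% of T and NK lymphocytes. Cd74, the invariant chain of MHC class II, was in 99.6% of B lymphocytes, 4.76% of T and NK lymphocytes and 34.4% of endothelial cells. Median depth was 2615 UMIs in B lymphocytes, 4585 in T and NK lymphocytes and 4289 in endothelial cells, so the B lymphocytes were the class read least deeply. T and NK lymphocytes were barcodes with at least 2 UMIs in sum of Cd3e, Cd3d, Cd3g, Klrb1c and Ncr1, and endothelial cells those with at least 5 UMIs of Cdh5, Pecam1 and Cldn5 and 0 of Ptprc; both had 0 of Cd79a, Cd79b and Ms4a1.

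**Figure D2:**
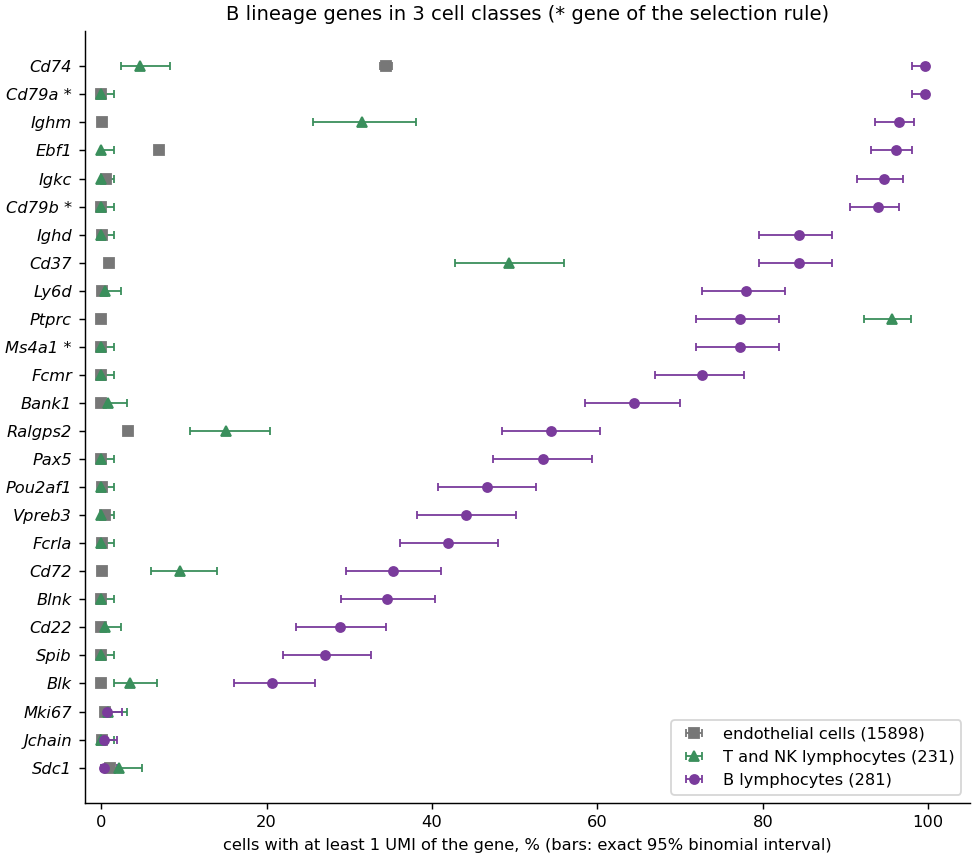
Percent of cells with at least 1 UMI of each gene (x axis) in B lymphocytes, T and NK lymphocytes and endothelial cells over all 6 libraries, with exact 95% binomial intervals; an asterisk marks the 3 genes of the selection rule. Most B lineage genes lie above 20% in B lymphocytes and near 0% in the other classes, whereas the plasma cell genes Jchain and Sdc1 lie near 0% in all.

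Markers of other cell types and stages ranged from 0 to 337 UMIs over all 281 cells. Of the 12 T and NK markers 6 were at 0, among them Cd3g, Trac, Trbc2, Cd4 and Cd8a, while Cd2, an adhesion molecule of lymphocytes, had 161 UMIs and the NK granule gene Gzma 61. Of the 6 markers of plasmacytoid dendritic cells 5 were at 0, Siglech among them. Of the 12 myeloid markers the macrophage genes C1qa and C1qb were at 0, and Csf1r, Cd68, Adgre1, S100a8 and S100a9 had 1 to 2 UMIs each. The other myeloid markers were present: Ctss, a protease of antigen processing, had 337 UMIs, the protease inhibitor gene Cst3 245, the signalling adaptors Fcer1g and Tyrobp 51 each, and Lyz2 41. In the list of 12 germinal centre and plasma cell genes 3 were at 0. Jchain, the joining chain of secreted antibody, and the plasma cell surface gene Sdc1 had 1 UMI each, whereas Txndc5 had 72, the secretory factor Xbp1 30, Bcl6 25 and Irf4 20. Mzb1, a further plasma cell marker outside this list, had 307 UMIs. Of the 10 genes of immature and precursor cells Vpreb1, Igll1 and Dntt were at 0 and Rag1, a recombinase of receptor assembly, had 2 UMIs, but Cd24a had 185 and Il7r 38. No stage was assigned to the cells from these lists. UMIs of abundant genes of other lung cells were present. The epithelial surfactant gene Sftpc had 389 CPM (the gene's UMIs relative to all UMIs of the library's B lymphocytes, in the usual CPM scale) in Control 1, 77.2 and 344 CPM in the other Controls, and 243, 305 and 342 CPM in AML 1, 2 and 3.

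To show what the promoters of such genes hold, the 250 bases before and 50 after the start were taken from RefSeq (GRCm38.p6) for 14 B lineage genes with 16 promoters. The octamer ATGCAAAT, which POU factors and their coactivator Pou2af1 bind, occurred on either strand in 2 of these 16 promoters (Blnk and Vpreb3) and in 570 of 32851 promoters of all genes (1.74%). The Ebf1-type palindrome, of which the capitals in Cd22 below are an instance and whose 2 middle bases were free, occurred in 1 (Cd22) and in 297 of all (0.904%). A match is a run of letters and not a measured site, and a window without one says nothing about the factor. Shown here are Vpreb3, a gene of the surrogate light chain family that mature cells still transcribed (chr10:75948050-75948349, plus strand), with the octamer in capitals as it reads on this strand, and Cd22, an inhibitory coreceptor (chr7:30878979-30879278, minus strand), with the palindrome in capitals. The promoter of Cd79a, a gene of the selection rule (chr7:24897247-24897546, plus strand), held neither and has no capitals.
Vpreb3: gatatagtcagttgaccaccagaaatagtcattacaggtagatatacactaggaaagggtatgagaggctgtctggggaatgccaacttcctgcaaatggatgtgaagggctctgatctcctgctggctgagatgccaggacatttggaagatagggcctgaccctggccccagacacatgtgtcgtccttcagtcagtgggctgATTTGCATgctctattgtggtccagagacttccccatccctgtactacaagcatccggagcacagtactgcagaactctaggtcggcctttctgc
Cd22: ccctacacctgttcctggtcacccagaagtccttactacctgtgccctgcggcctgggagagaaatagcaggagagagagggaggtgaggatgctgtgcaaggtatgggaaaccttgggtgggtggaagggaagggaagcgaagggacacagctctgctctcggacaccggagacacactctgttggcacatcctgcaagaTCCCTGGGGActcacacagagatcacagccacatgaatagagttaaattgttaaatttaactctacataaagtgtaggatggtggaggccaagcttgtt
Cd79a: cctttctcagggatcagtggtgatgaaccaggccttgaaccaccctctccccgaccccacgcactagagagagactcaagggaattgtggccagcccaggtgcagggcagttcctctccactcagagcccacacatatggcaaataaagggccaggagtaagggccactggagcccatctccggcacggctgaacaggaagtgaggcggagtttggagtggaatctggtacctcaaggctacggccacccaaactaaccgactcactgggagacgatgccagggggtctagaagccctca
Vpreb3 had a UMI in 44.1% of B lymphocytes and 0 of 231 T and NK lymphocytes, and Cd22 in 28.8% and 0.433%.

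Light chains were read from Igkc, the kappa constant region (chr6:70726435-70726966), and from Iglc1, Iglc2 and Iglc3, the lambda constant regions (chr16:19061618-19062071, chr16:19198396-19200351 and chr16:19065230-19065681). Of the 281 cells, 245 had more kappa than lambda UMIs, 35 had more lambda and 1 had equal counts. Cells with more lambda made up 25% (1 of 4), 16.7% (7 of 42) and 22.2% (6 of 27) in Control 1, 2 and 3 and 11.6% (8 of 69), 1.85% (1 of 54) and 14.3% (12 of 84) in AML 1, 2 and 3. All 3 Control shares lay above all 3 AML shares. The difference in means was -12.1 percentage points (Control 21.3% ± 4.24, AML 9.24% ± 6.54, SD, n = 3 each), and a two-sided exact permutation test over libraries gave p = 0.1, the smallest p that 3 against 3 libraries allow (0.15 after Benjamini-Hochberg adjustment over 3 chain shares). The share of Control 1 rests on 1 of 4 cells (exact 95% interval 0.631 to 80.6%), and that of AML 2 on 1 cell (0.0469 to 9.89%). The AML libraries are also those with the lower depth, and its part in this difference was not tested.

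Most B lymphocytes had UMIs of both light chain types. Of the 245 cells with more kappa, 219 (89.4%) also had lambda constant region UMIs, which took a median of 18.2% of their light chain UMIs. Of the 35 cells with more lambda, 20 had kappa UMIs. No T or NK lymphocyte (0 of 231) had a UMI of either, and 0.535% and 0.629% of endothelial cells had one of kappa and of lambda. In AML 2 the cells with more kappa had medians of 10 kappa and 1 lambda UMI, the lowest medians of both among the 6 libraries, and 37 of 53 had any lambda. A stricter call required the winning chain to have at least 3 UMIs and 4 times those of the other. With it, the difference in the lambda share was -21.5 points (exact permutation p = 0.1). Of the cells assigned above, it kept 3 of 4 (Control 1), 18 of 42 (Control 2) and 13 of 27 (Control 3). For AML 1, 2 and 3 it kept 34 of 69, 43 of 54 and 51 of 84. The loss of cells was thus uneven, and its part in this difference was not tested.

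**Figure D3:**
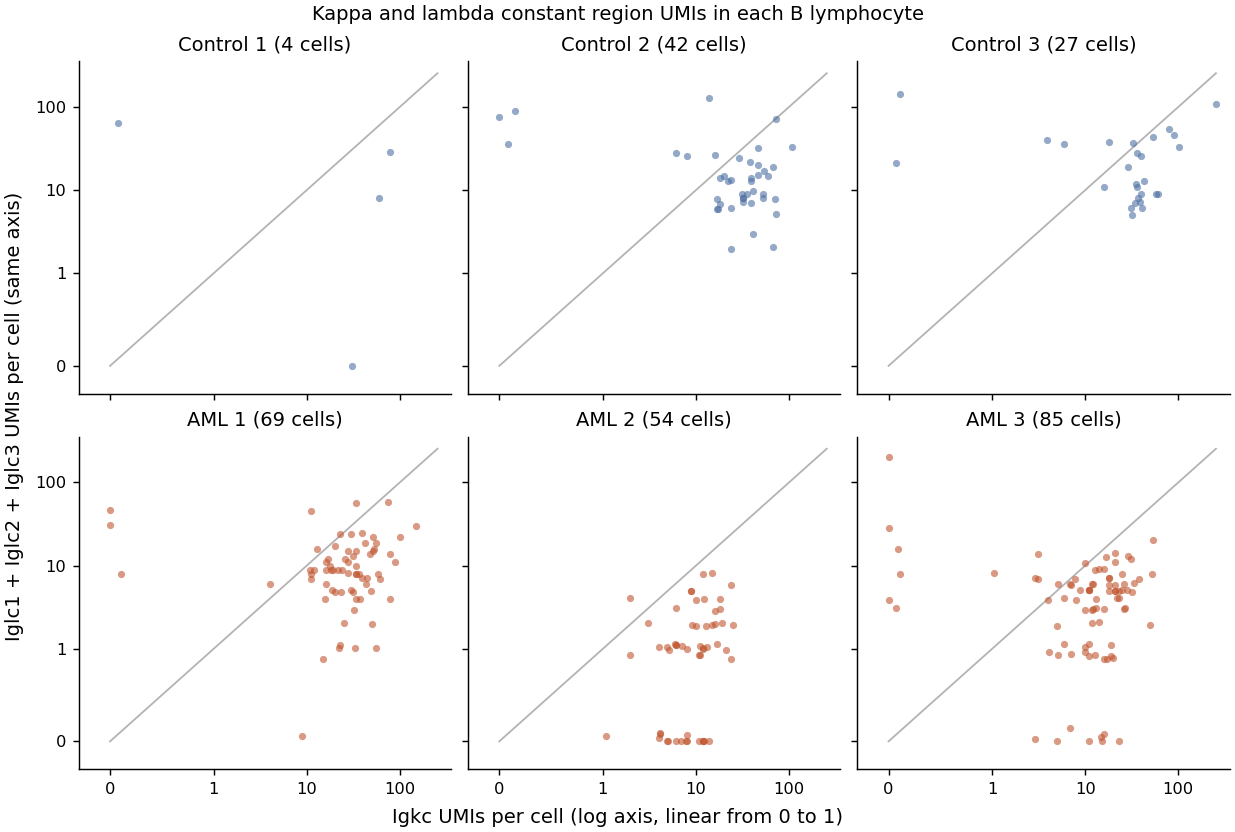
UMIs of Igkc (x axis) and of Iglc1, Iglc2 and Iglc3 in sum (y axis) in each B lymphocyte, 1 panel per library, on log axes that are linear from 0 to 1, with a small jitter; the grey line marks equal counts. Most cells of Control 2, Control 3 and AML 1 carry both types below the line, a few carry many lambda and no kappa UMIs, and the cells of AML 2 lie at lower counts of both.

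Heavy chains were mostly IgM and IgD. IgM (Ighm, chr12:113418558-113422730) and IgD (Ighd, chr12:113406604-113416324) were found together in 234 of 281 cells (83.3%), IgM without IgD in 37, IgD without IgM in 3 and neither in 7. An Ighm UMI was also found in 31.6% of T and NK lymphocytes and in 0.145% of endothelial cells, while Ighd was found in 0 of 231 T and NK lymphocytes and 0.0629% of endothelial cells. After each cell was thinned to 1000 UMIs, at which no cell was lost, IgD was found in 75.0%, 71.4% and 37.0% of the B lymphocytes of Control 1, 2 and 3 and in 68.1%, 59.3% and 60.0% of those of AML 1, 2 and 3. Control 3 was the low library. The means, 61.2% ± 21 and 62.5% ± 4.91, differed by less than the spread between libraries (two-sided exact permutation p = 1.0, n = 3 each). Without thinning, IgD was found in 100%, 95.2% and 77.8% against 87.0%, 83.3% and 78.8%, a difference of -7.97 points (exact permutation p = 0.4), which turned the direction.

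Switched antibody was rare. More UMIs of Ighg1, Ighg2b, Ighg2c, Ighg3, Igha or Ighe than of Ighm and Ighd were found in 0 of 4, 0 of 42 and 0 of 27 cells of the Controls. The exact 95% upper limits were 8.41% and 12.8% in Control 2 and 3. In AML 1, 2 and 3 there were 1 of 69, 1 of 53 and 3 of 84 such cells (1.45%, 1.89% and 3.57%). The difference was 2.3 points, with an exact permutation p of 0.1, the smallest possible (0.15 adjusted over the 3 chain shares). The Control shares could hold as large a value at this number of cells. One of these cells in AML 1 had 10 Igha UMIs (IgA heavy chain) with 34 kappa UMIs, that of AML 2 had 9 Igha UMIs with 12 kappa UMIs, and both had 0 of Ighm and Ighd. Of the 3 cells in AML 3, 1 had 5 Ighg3 UMIs, 1 had 1, and 1 had 2 of Ighg1 and 1 of Igha. Jchain had 1 UMI over all B lymphocytes of the series, in AML 2.

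Variable region genes were read in some cells only, since 3' libraries seldom reach them. A single heavy V gene led in 98 cells, in 49 different genes. Those assigned to most cells were Ighv1-26 (6 cells, 4 libraries), Ighv1-9 (5 cells, 4 libraries) and Ighv2-2 (5 cells, 4 libraries), and no gene was in more than 3 cells of 1 library. A kappa V gene led in 75 cells, in 39 different genes, with Igkv1-117 in 9, Igkv19-93 in 6 and Igkv16-104 in 4. Iglv1, Iglv3 and Iglv2 led in 10, 7 and 2 cells. Among 31 cells with both a heavy and a kappa V gene, all 31 pairs were different. V genes of a family are alike in sequence, so single assignments from few UMIs are uncertain.

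Genes of the naive and recirculating state were present in every library. Klf2, a factor that keeps lymphocytes quiescent and circulating, stood at 988 and 769.7 CPM in Control 2 and 3 against 1166, 835 and 821 CPM in the AML libraries, and its target S1pr1, the receptor for exit into blood, at 118 and 131 against 95.2, 161 and 137 CPM. For both genes the groups overlapped, and the log2 changes were 0.15 ± 0.28 and 0.11 ± 0.36 (SE). Cxcr5, the receptor that guides B lymphocytes to follicles, stood at 66.9 and 57.3 against 71.4, 48.2 and 68.4 CPM. Cr2, the complement receptor CD21, was the member of this list with unadjusted p under 0.05: it stood at 118 and 90.1 against 71.4, 16.1 and 47.3 CPM (log2 change -1.07 ± 0.44, edgeR adjusted p = 0.539).

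Cells of Control 3 stood apart in 2 cases. One cell had 16605 UMIs, 13.6% of all B lymphocyte UMIs of that library, with 147 Ighm and 0 Ighd UMIs. It carried 11 UMIs of Mki67, a marker of dividing cells, 8 of Bhlhe41 and 7 of Zbtb32, which are transcription factors of innate-like B cells, 8 of the chemokine receptor gene Cxcr3 and 63 of Plac8. The 25 other cells of the library without this cell and the next one had 0 UMIs of Mki67, Zbtb32 and Cxcr3 and 3 of Bhlhe41 in all. Another cell, with 8679 UMIs, had 30 UMIs of the B cell markers and 61 of Gzma and 17 of Nkg7, which are granule genes of NK cells. Neither was among the cells with the highest doublet scores, which held 1 B lymphocyte of Control 2 and 3 of AML 1.

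The comparison of the groups asks how the cells of a lung differ when leukaemia occupies it. No gene passed in B lymphocytes: 0 of 3053 genes tested (0.0%) had an adjusted p under 0.05 in edgeR's quasi-likelihood test between the groups, adjusted after Benjamini and Hochberg across every gene tested. At an unadjusted p under 0.05, 214 genes stood out (7.01%), 121 higher (3.96%) and 93 lower (3.05%) in AML libraries, and DESeq2 called 0 with 70 at an unadjusted p under 0.05. All Control values lay above or below all AML values for 731 genes (23.9%), of which 363 were higher (11.9%) and 368 lower (12.1%) in AML libraries. The median log2 change of all genes tested was 0.0038. In simulated counts of this design, 93.9% of 4-fold and 29.9% of 2-fold changes were called, and 6.15% of the calls were false. Changes of about 2-fold were thus mostly beyond reach here. In the measured counts, log2 changes ran from -2.49 to 7.44 and 0 genes passed. The share for 4-fold changes therefore need not hold for the measured counts. Values of single genes follow as CPM without further scaling, and log2 changes come from the fit with TMM scaling.

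Genes nearest to the threshold included a ubiquitin ligase and a septin. Neurl3, which encodes a RING-type ubiquitin ligase (chr1:36264597-36274679), stood at 108 and 65.5 CPM in Control 2 and 3 (86.5 in Control 1), against 190.4, 489.7 and 295 CPM in the AML libraries. Values before and after the word against are given in this order of libraries from here on. Every AML library lay above every Control. The log2 change was 1.86 ± 0.40 (SE), 3.64-fold, with an edgeR adjusted p of 0.0612. Sept11, a filament-forming septin (chr5:93093437-93176447), stood at 113 and 205 CPM (43.2 in Control 1) against 33.3, 40.1 and 36.8 CPM. The AML libraries lay below both tested Controls and near Control 1, where the value is 1 UMI. Its log2 change was -1.99 ± 0.42 with an edgeR adjusted p of 0.059. Ifi27l2a, an interferon-inducible mitochondrial protein (chr12:103442167-103443680), stood at 540.2 and 631 CPM (303 in Control 1) against 328, 88.3 and 163 CPM, a log2 change of -1.48 ± 0.33 (edgeR adjusted p = 0.0612). Neurl3 passed the threshold in 8 of 19 other settings, Sept11 in 6 of 17 and Ifi27l2a in 6 of 19, each with its sign in all of them.

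Cold-inducible RNA-binding proteins came next among the higher genes. Cirbp (chr10:80165985-80172786) stood at 123 and 131 CPM (129.7 in Control 1) against 286, 586 and 226 CPM, and AML 2 was the highest. Its log2 change was 1.55 ± 0.37 (2.92-fold, edgeR adjusted p = 0.144). Rbm3 (chrX:8138975-8145880) stood at 324 and 401 CPM (259 in Control 1) against 647, 1004 and 715 CPM, with a log2 change of 1.19 ± 0.30 (edgeR adjusted p = 0.149). Both had the same sign in all 19 other settings. Sdhaf1, an assembly factor of respiratory complex II, stood at 15.4 and 16.4 against 71.4, 80.3 and 78.9 CPM, but on 3 and 2 UMIs in the Controls. Arap2, a regulator of small GTPases, stood at 139 and 98.3 against 233, 466 and 189 CPM.

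Among the lower genes, Irf8 (interferon regulatory factor 8, which B lymphocytes use in their development) stood at 376 and 532 CPM (605 in Control 1) against 290.4, 161 and 142 CPM. The 3 AML libraries lay below all 3 Controls, with a log2 change of -1.09 ± 0.31 (edgeR adjusted p = 0.298). Calr, which encodes the endoplasmic reticulum chaperone calreticulin, stood at 273 and 328 against 171, 112 and 73.6 CPM (log2 change -1.24 ± 0.32, edgeR adjusted p = 0.158). Ms4a4c, a relative of the CD20 gene, stood at 268 and 188 against 148, 40.1 and 84.2 CPM (log2 change -1.22 ± 0.35, edgeR adjusted p = 0.377).

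**Figure D4:**
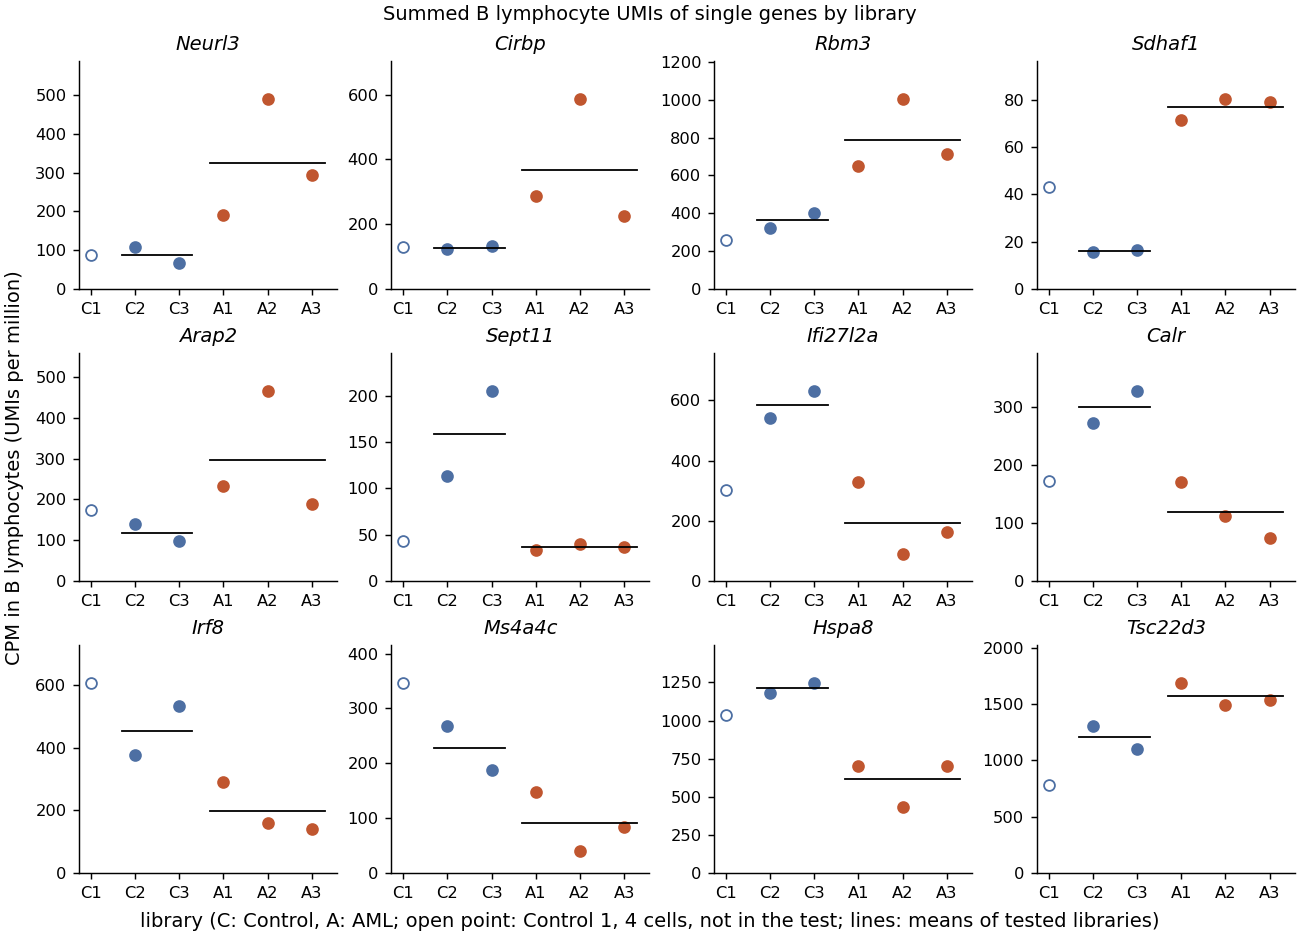
CPM in B lymphocytes (y axis, from 0) of 12 genes in each library (x axis), 1 point per library; lines mark the means of the 2 tested Control and 3 AML libraries and the open point is Control 1. The 5 genes from Neurl3 to Arap2 and Tsc22d3 lie higher in the AML libraries, and Sept11, Ifi27l2a, Calr, Irf8, Ms4a4c and Hspa8 lie lower than both tested Controls, with no gene past the adjusted threshold.

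Heat shock genes leaned lower. Of 14 members 10 could be tested and 0 passed. All 10 had a log2 change below 0, with a median of -0.58 (0.0038 over all genes tested). An unadjusted p under 0.05 was found for 3 (3.05% of all genes were lower at that p). Of the 10, 9 lay lower in every AML library than in both tested Controls, against 12.1% of all genes. Hspa8, the constitutive chaperone HSC70 (chr9:40800984-40810087), stood at 1183 and 1245 CPM (1038 in Control 1) against 705, 434 and 705 CPM, with a log2 change of -0.91 ± 0.27 (edgeR adjusted p = 0.377). Hsp90ab1, the constitutive HSP90, stood at 1554 and 1720 against 1124, 1132 and 1089 CPM. Dnajb1, a cochaperone of HSP70, stood at 113 and 98.3 against 47.6, 40.1 and 52.6 CPM. The endoplasmic reticulum chaperone Hsp90b1 stood at 334 and 622 against 286, 201 and 299.8 CPM. For Hsp90b1, Control 1, which was not tested, lay below every AML library, on few UMIs. Hspa1b, the inducible HSP70, was too rare to test in B lymphocytes alone. It had 0 and 1 UMI in Control 2 and 3 and 7, 0 and 9 UMIs in AML 1, 2 and 3. In the comparison with endothelial cells given below, its log2 change was more positive in B lymphocytes, by 6.33 ± 1.02 (SE). In T and NK lymphocytes and in endothelial cells of the same 5 libraries the list had medians of -0.46 and -0.61. Each was taken over the members tested in that class, which need not be the same 10 genes.

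Genes of the cold and glucocorticoid response leaned higher. Of 12 members 7 were tested and 0 passed. All 7 had a log2 change above 0, with a median of 0.99. An unadjusted p under 0.05 was found for 5 (3.96% of all genes were higher at that p). Of the 7, 6 lay higher in every AML library than in both tested Controls, against 11.9% of all genes. Beside Cirbp and Rbm3, these were the glucocorticoid-induced genes Tsc22d3 (GILZ), at 1307 and 1105 against 1685, 1493 and 1536 CPM, and Fkbp5, at 103 and 49.1 against 138, 185 and 147 CPM. Ddit4, an inhibitor of mTOR signalling, stood at 51.5 and 24.6 against 90.5, 120.4 and 89.4 CPM, and Txnip, a brake on glucose uptake, at 869.5 and 721 against 1604, 1052 and 1052 CPM. Cxcr4, the receptor for the stromal chemokine CXCL12, was the member with overlapping groups, at 304 and 467 against 443, 345 and 321 CPM. The list had medians of 0.56 in T and NK lymphocytes and 0.68 in endothelial cells. For Tsc22d3 the endothelial log2 change was -0.53.

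B lineage genes outside the rule had lower values in the AML libraries in most cases. Of 16 tested, 0 passed, 15 had a log2 change below 0 (median -0.30), 3 had an unadjusted p under 0.05 (3.05% of all genes were lower at that p) and 4 lay lower in every AML library than in both Controls, against 12.1% of all genes. These 4 were Cd22 (154 and 246 against 119, 80.3 and 84.2 CPM), Cd72, another inhibitory coreceptor (211 and 336 against 190.4, 104 and 78.9 CPM), Ralgps2 (489 and 622 against 376, 177 and 268 CPM) and Ly6d, a surface antigen of the lineage (2243 and 2670 against 1995, 449.6 and 1042 CPM). Control 1, which was not tested, lay below every AML library for Ly6d and below AML 1 for Cd72, on few UMIs. Ebf1 was the 1 gene above 0, at 1852 and 1589 against 1781, 1734 and 1867 CPM. The list had medians of -0.85 in T and NK lymphocytes and -0.27 in endothelial cells, each over the members tested in that class. The receptor genes of the rule, given as a description, stood at 2655 and 2285 against 2923, 1782 and 1825 CPM for Cd79a and at 1816 and 1851 against 1899.6, 1044 and 1331 CPM for Cd79b. For both, AML 1 lay above both tested Controls and AML 2 and AML 3 lay below them. AML 2 was the lowest of the 5 tested libraries for Ly6d and Ms4a1, and AML 2 and AML 3 hold the cells with the fewest marker UMIs.

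Genes of receptor signalling were tested in 15 of 16 members, of which 0 passed, 11 lay below 0 and 4 above (median -0.37). Ptpn6, the phosphatase SHP-1 that damps the receptor, was the member with an unadjusted p under 0.05, at 396 and 532 against 295, 48.2 and 168 CPM (log2 change -1.29 ± 0.41, edgeR adjusted p = 0.438). The kinases Syk, Lyn and Btk, which start the signal, had log2 changes of 0.21 ± 0.31, -0.52 ± 0.29 and -0.12 ± 0.31. Among receptors of survival and costimulation, 9 of 14 were tested, 0 passed and 7 lay below 0 (median -0.25). Il21r, the receptor for the T cell cytokine IL-21, had 12 and 15 UMIs in Control 2 and 3 against 7, 1 and 6 UMIs (61.7 and 123 against 33.3, 8.03 and 31.6 CPM, edgeR unadjusted p = 0.00446, adjusted p = 0.398). Cd69, an early activation and retention marker, stood at 406 and 352 against 305, 682 and 668 CPM.

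No antigen presentation gene passed. Of 10 MHC class II genes tested, 0 passed, 9 lay below 0 and the median was -0.11. Cd74 was the most abundant, at 13269 and 9343 CPM (10336 in Control 1) against 12864, 8879 and 9936 CPM, with overlapping groups. H2-Aa (chr17:34282744-34287823) stood at 3612 and 2547 against 3690, 2979 and 3256 CPM. All 9 MHC class I genes tested lay below 0 (median -0.41, 0 passed), 4 of them lower in every AML library (12.1% of all genes), with B2m at 1744 and 2317 against 1638, 1405 and 1452 CPM. Of 20 type I interferon genes 4 were abundant enough to test, 0 passed and all 4 lay below 0 (median -0.28). Immediate early and NF-kB genes were tested in 15 of 20 members, with 9 above and 6 below 0 and a median of 0.09. Homing and adhesion genes split 4 and 4 of 8 tested (median -0.16). Of 14 cell division genes 4 were tested, 2 on each side of 0.

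**Figure D5:**
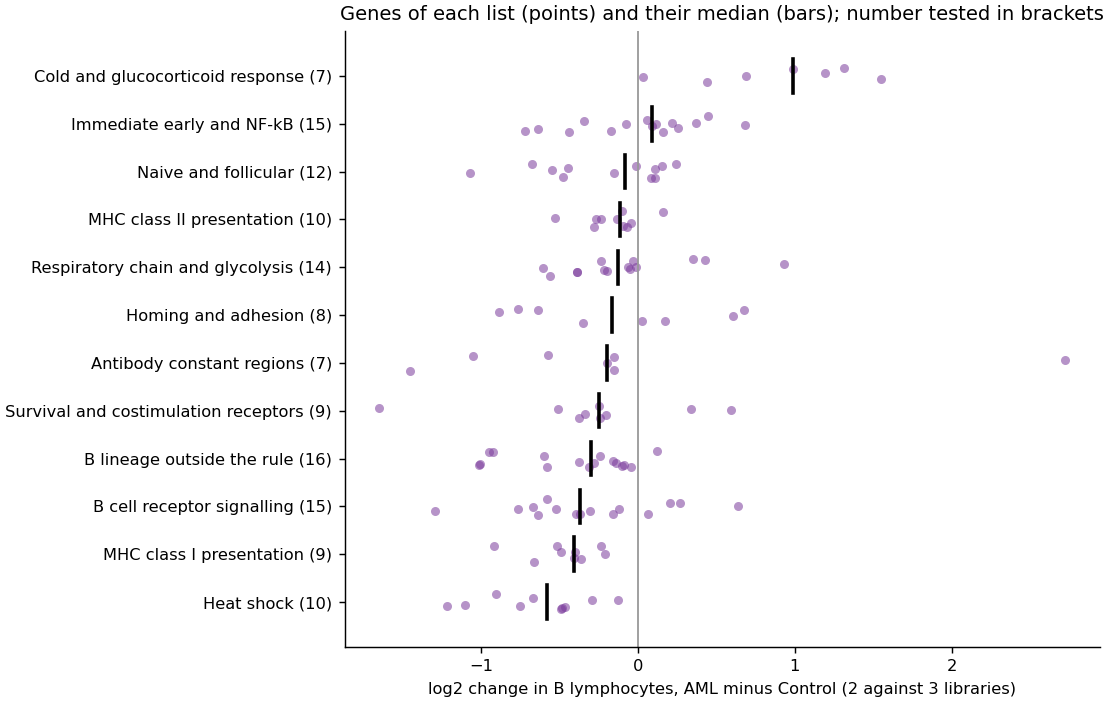
Log2 change in B lymphocytes, AML minus Control, of each tested gene (points) of the lists with at least 7 tested genes, with the median of each list as a bar. Medians run from -0.58 for heat shock to 0.99 for cold and glucocorticoid genes, and no gene passed the adjusted threshold.

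Transcripts of other classes in the summed B lymphocytes were as follows. The 12 T and NK markers summed to 200.7 and 958 CPM in Control 2 and 3 and to 136 to 205 CPM in the AML libraries, with 6 of 12 at 0 UMIs, and the high value of Control 3 came with the cell of NK granule genes. The 12 myeloid markers summed to 813 and 1310.2 CPM against 636 to 828 CPM, with 2 of 12 at 0, the 12 endothelial markers to 118 and 172 against 143 to 274 CPM, with 1 of 12 at 0, and the 12 epithelial markers to 159 and 475 against 417 to 542 CPM, with 2 of 12 at 0. The 10 erythroid and platelet markers summed to 51.5 and 704 CPM against 42.1 to 177 CPM. The 8 leukaemia markers summed to 8.19 to 10.3 CPM in the Controls and 14.3 to 24.1 CPM in the AML libraries, with 3 of 8 at 0. The part of these in the gene values was not tested beyond the settings without the cell of NK genes, where 0 genes passed, and with only cells free of 9 such genes, which left 22 Control 2 and 20, 22 and 25 AML cells and 2 genes passing of 995 (Apoe and Ifi27l2a).

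The change with AML in B lymphocytes was set against that in T and NK lymphocytes of the same libraries. In T and NK lymphocytes alone, 2 of 4077 genes passed (0.0491%), with 263 at an unadjusted p under 0.05 (6.45%). Of 3896 genes tested for a difference between the changes, 0 passed (0.0%) in edgeR with a library term, 172 had an unadjusted p under 0.05 (4.41%), and DESeq2 called 0 with 59 at an unadjusted p under 0.05. Neurl3 stood at 110 and 79.1 CPM in T and NK lymphocytes of the Controls, against 81.3, 60.9 and 38.9 CPM (log2 change -0.46 ± 0.38, edgeR adjusted p = 0.838). The difference of the log2 changes was 2.16, with an edgeR adjusted p of 0.402. Cirbp and Rbm3 lay higher in every AML library in T and NK lymphocytes too, Rbm3 at 405 and 275 against 669, 1269.9 and 661 CPM (log2 change 1.44, edgeR adjusted p = 0.0798). In simulated counts, 58% of 4-fold and 2% of 2-fold differences of this kind were called. Only the more abundant genes of B lymphocytes were changed there, so the shares do not cover rarer genes.

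Against endothelial cells, the most numerous class, 24 of 12442 genes had a different change (0.193%), 16 with a more positive log2 change in B lymphocytes (0.129%) and 8 with a more negative one (0.0643%). At an unadjusted p under 0.05 there were 604 (4.85%). For Cxcr4 (chr1:128588199-128592293), B lymphocytes stood at the levels given above, while endothelial cells stood at 12.8 and 17.7 CPM in Control 2 and 3, against 4.56, 2.67 and 2.62 CPM in AML 1, 2 and 3. The log2 change was 0.03 in B lymphocytes and -2.20 in endothelial cells, and the difference was 2.29 ± 0.36 (SE, edgeR adjusted p = 1.02e-06). Ifi203 and Mndal, interferon-inducible genes of the p200 family, differed by 1.67 ± 0.33 and 1.56 ± 0.33: Ifi203 stood at 515 and 450.4 against 609, 281 and 399.8 CPM in B lymphocytes and at 146 and 142 against 74.5, 25.4 and 35.4 CPM in endothelial cells. H2-Aa differed by 1.46 ± 0.34 (edgeR adjusted p = 0.030), with endothelial levels of 242 and 209 against 294, 43.5 and 67.4 CPM. Itga4, an integrin chain of leukocyte homing, differed by 1.46 ± 0.36 (edgeR adjusted p = 0.0302).

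Neurl3 and Sept11 were also among the 24 genes. The difference was 2.61 ± 0.45 for Neurl3 (edgeR adjusted p = 5.36e-05), with 11.2 and 21.1 against 13.6, 13.3 and 3.09 CPM in endothelial cells, and -2.0 ± 0.48 for Sept11 (edgeR adjusted p = 0.0206), with 102 and 98.4 against 129, 80.6 and 95.6 CPM. Apoe, the apolipoprotein E gene (chr7:19696109-19699188), stood at 283 and 827 against 509, 1951 and 1236 CPM in B lymphocytes and at 58.4 and 116 against 43.5, 35.0 and 41.5 CPM in endothelial cells, a difference of 2.31 ± 0.33 (edgeR adjusted p = 4.96e-08). Ucp2, a mitochondrial carrier, stood at 386 and 393 against 333, 241 and 316 CPM in B lymphocytes and at 912 and 525 against 1465, 2428 and 2405 CPM in endothelial cells, a difference of -1.81 ± 0.35. Of the 24 genes, 19 were also tested in B lymphocytes alone, where 7 had an unadjusted p under 0.05 and 0 passed. Over all other barcodes the secreted lung proteins Sftpa1, Scgb1a1 and Lyz2 were at least 10 times higher than in B lymphocytes (37.7, 19.3 and 37.0 times), and the source of their UMIs was not tested.

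These 24 calls depended on the fit. DESeq2 called 2 of them (Cxcr4 and Ifi203), and the fit without the library term called 0. Leaving out AML 1, 2 or 3 gave 45, 12 and 8 calls. Of these, 20, 10 and 7 were among the 24. No gene passed in endothelial cells alone with the same 5 libraries (0 of 12831 in edgeR, with 2065 at an unadjusted p under 0.05, 16.1%).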

How the data were processed

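The deposited values were unnormalized UMI counts for each gene in each barcode, which the authors made with Cell Ranger against mm10 (version 6.0.1 per the file headers, 7.0.0 per the submitters' processing notes) and deposited as 1 filtered matrix per library. No further normalization was in the files, and 0 columns outside the labelled samples were present. From these counts, barcodes were kept at 500 or more genes and at most 15% mitochondrial UMIs, and the classes were drawn by the UMI rules given with the results. Doublets were scored with scanpy 1.11.5 (Scrublet), the highest scores were marked at 0.8% per 1000 barcodes, and marked cells were kept, with a setting that removed them.

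Raw UMIs were summed per library and class, and libraries with fewer than 10 cells of a class were left out. edgeR 4.0.16 in R 4.3.3 (filterByExpr, TMM, robust quasi-likelihood fit, Benjamini-Hochberg adjustment over all genes tested, threshold 0.05) compared AML with Control. The interaction of class and group had a library term. SEs were derived from the log2 change and the F statistic. The test was also run on simulated counts. DESeq2 1.42.0 was an alternative. Shares of cells were compared with two-sided exact permutation tests over libraries (scipy 1.17.1). Total B lymphocyte UMIs of 23124 to 210046 per library limit the precision for genes of low level.

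Genes named are the 5 with the smallest p in each direction among genes whose groups did not overlap, with at least 50 CPM in the higher group, genes of the lists whose role in B lymphocytes the text describes, the genes called against endothelial cells, and the 3 heavy and 3 kappa V genes in most cells. The members, lists and tests were chosen with earlier results of these data known. Gene positions are from GENCODE M21. Alternatives changed the marker threshold, mitochondrial filter, doublets, cells per library, cells with RNA of other classes, scaling, tool, low-count filter, antibody genes, replicate block, library term, chain call and thinning, and left out each library in turn. Those with Control 1, without the cell with NK transcripts and without the deepest cell of each library were added after seeing the data. Values of 2 list members are not reported here.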

Additional observations from a re-analysis of the deposited data

Results flagged for a closer look

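The change with AML differed between B lymphocytes and endothelial cells for 24 genes in edgeR's interaction test, at an adjusted p under 0.05, and the values below are the log2 change in B lymphocytes minus that in endothelial cells. Among genes of blood cells and presentation, Cxcr4 had 2.29, Ifi203 1.67, Mndal 1.56, Ptpn18 1.47, H2-Aa 1.46 and Itga4 1.46. Apoe had 2.31 and Neurl3 2.61. The negative values were those of Ucp2 (-1.81), Cd24a (-1.66), Fxyd5 (-1.68), Sept11 (-2.0), Pglyrp1 (-2.95), Egr1 (-3.18), Ankrd37 (-3.94) and Bhlhe40 (-4.33). Klf9 had 2.95 and Gm8369 had 3.69.

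Genes of other lung cells had large values on few UMIs. Sftpa1 had 4.51, Scgb1a1 3.92 and Lyz2 2.69, and in endothelial cells they stood at 565, 1106 and 538 CPM in Control 3 against 14.5, 39.9 and 20.1 CPM in Control 2. Hspa1b had 6.33, with 17 UMIs in all B lymphocytes. Emb had 12.98 and Ston1 11.04, but the B lymphocytes of both tested Controls had 0 UMIs of them, so these fitted values are no bound on a fold. Emb had 0, 44 and 15 UMIs and Ston1 had 5, 6 and 6 UMIs in AML 1, 2 and 3. For Egr1, 20 of the B lymphocyte UMIs came from Control 3 and 1 to 2 from each AML library.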

How the results depend on the processing

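Depth limits these results: 2-fold changes were called in 29.9% of simulated cases, and the Controls rest on 42 and 27 cells. The count of 0 genes called in B lymphocytes stayed at 0 under DESeq2, its size factors, both marker thresholds, the mitochondrial filter of 10% and without the cell of NK genes. It was 3 with antibody genes left out, 3 without the deepest cell of each library, 2 with doublets removed, 2 in cells without RNA of other classes, 1 with equal cells, 1 with Control 1 and 11 with no low-count filter. The samples share replicate numbers, and deviations from the group means had correlations of -0.04 and -0.01 over the 2 same-numbered pairs. The deviations of the 2 tested Controls mirror each other, so this check cannot decide whether the numbers pair libraries. With a replicate block, 67 genes were called on 1 residual degree of freedom. Leaving out each library gave 0 to 14 calls (13 without AML 1, 14 without Control 2). Where 1 Control remained, it was assumed to vary like the AML libraries. Against T and NK lymphocytes, the count was 1 with no low-count filter and 0 to 9 without single libraries (9 without Control 2). Against endothelial cells it was 24, 2 with DESeq2, 0 without the library term and 8 to 45 without single libraries. The IgD difference was 1.30 points, -7.97 without thinning, -4.58 thinned to 2000 UMIs, and -10.8 (without Control 3) to 8.23 without single libraries. Lambda, switched and barcode shares kept their direction.

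Some log2 changes near 0 turned sign. In cells without RNA of other classes H2-Aa was -0.17 and Ebf1 -0.043. With equal cells Cxcr4 was -0.054 and Cd37 0.010. At a marker sum of 2 Sftpa1 was -0.19, and at 5 Cxcr4 was -0.0020. Cxcr4 was -0.088 with the replicate block and -0.036 without the deepest cells. With Control 1, Cd74 was 0.067, Cxcr4 -0.064 and Cd37 0.050. Without single libraries, Cd74 ran from -0.34 to 0.32, H2-Aa from -0.14 to 0.53, Ighd from -0.53 to 0.37, Igkc from -0.54 to 0.050, Cxcr4 from -0.18 to 0.27, Syk from -0.0094 to 0.44, Cd37 from -0.47 to 0.22 and Ebf1 from -0.056 to 0.33. The differences from endothelial cells ran from -0.88 to 4.49 for Gm8369 and from -4.42 to 8.42 for Egr1. The cause was not tested.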

Other observations

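The light chain constant region genes varied in level between libraries. Iglc1 stood at 1260.5 and 2137 CPM in Control 2 and 3 against 981, 40.1 and 705 CPM in AML 1, 2 and 3, Iglc2 at 2197 and 3398 against 1762, 434 and 1625 CPM, and Iglc3 at 1122 and 909 against 1347, 257 and 1015 CPM. AML 2 was the lowest library for all 3. Igkc stood at 7666 and 10203 against 11140.4, 4520 and 6738 CPM. None of the 4 passed in edgeR (adjusted p 0.717 to 0.988). The 3 lambda genes are alike in sequence, so the split of UMIs among them is uncertain.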
